A study of Mus musculus with 12 samples.

Results

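The complement genes described here were 9 of the 24062 genes in a table of read counts from mouse colon tumours: C1qa, C1qb and C1qc, C2, C4b, C3, Cfb, Serping1 and Cd55. They were taken by name, with no threshold on their values but with earlier results of these data known, and all 9 passed the filter on low counts that left 15060 genes for testing. The tumours came from bone-marrow chimeras, written as marrow => host, with 3 libraries in each of 4 groups: St2-/- => St2-/-, WT => St2-/-, St2-/- => WT and WT => WT. St2 is the receptor for the cytokine interleukin-33 and is encoded by Il1rl1. All mice were of the Balb/c background, and every host, controls included, was irradiated with 2 doses of 5 Gy, given donor marrow, left to reconstitute for 8 weeks and injected with azoxymethane (AOM), a colon carcinogen, at 10 mg/kg once a week for 6 weeks. The tumours were collected 13 or 14 weeks after the injections ended. The mice were 11 males and 1 female, replicate 3 of WT => St2-/-, and their age was not given. No sample was free of AOM, irradiation or tumour. The St2-/- genotype held for all cells of that origin, so "host" covers epithelium, stroma and any blood cells that outlived irradiation, and the degree of reconstitution was not given.

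Complement is a cascade of plasma and tissue proteins that tags and lyses targets and recruits leukocytes. In the classical pathway C1q, built of A, B and C chains, binds a target, and the proteases attached to it cut C4 and C2 to form an enzyme that cleaves C3. In the alternative pathway factor B, the product of Cfb, forms the corresponding enzyme with C3b. Serping1 encodes the C1 inhibitor, which blocks the C1 proteases, and Cd55 encodes decay-accelerating factor, which takes apart both C3-cleaving enzymes on the cell surface. The liver makes most circulating complement, whereas macrophages make most C1q and gut epithelium can make C3 and factor B.

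The libraries held 10293818 to 12962496 reads assigned to genes. Levels are given as CPM, counts scaled to a common library size with TMM factors. Il1rl1, the targeted gene, had 7.30 to 25.04 CPM in the 6 tumours of St2-/- hosts and 36.5 to 275 CPM in the 6 tumours of WT hosts, without overlap, and its log2 fold change between hosts was -3.42 (SE 0.52, edgeR quasi-likelihood test, adjusted p = 0.00984). Some reads of Il1rl1 were thus counted also where marrow and host were both St2-/-, at 7.91 to 13.4 CPM. The numbers in the sample descriptions ran in separate series for the St2-/- and WT hosts, and what they number is not stated. Any batch that followed these series cannot be told apart from host genotype. Smooth-muscle markers summed to 4013 and 1881 CPM in WT => St2-/- replicates 2 and 3 and to 3260 and 1754 CPM in St2-/- => WT replicates 1 and 2, against 288 to 605 CPM in the other 8. Replicate 2 of WT => WT stood apart in having the most C1q, C2, Cfb, C4b and Serping1 of all 12. In bulk tumour RNA, fewer cells of a type and less RNA per cell cannot be told apart.

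With the 2 marrows averaged, all 9 genes had a lower fitted level in St2-/- hosts than in WT hosts, and C2 alone fell past the test's threshold. The threshold was an adjusted p under 0.05 in edgeR's quasi-likelihood test over all 15060 genes, which called 1.37% of them in either direction and 1.08% of them lower. The members' log2 fold changes lay between -2.00 and -0.39 with a median of -0.68, beside a median of 0.00 over all tested genes, of which 50.2% were below 0. Without adjustment, 4 of the 9 had p under 0.05, namely C2, Cfb, C1qa and C1qb, where 20.6% of all tested genes did. The levels of C2 and Cfb did not overlap between the 6 St2-/- hosts and the 6 WT hosts, a pattern of lower values that 1.71% of tested genes shared.

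**Figure D1:**
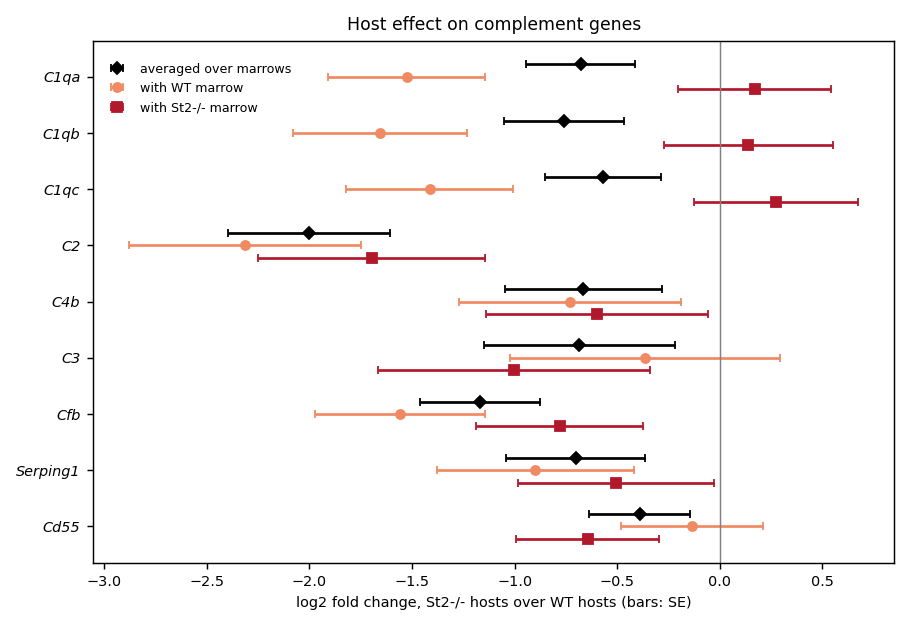
Log2 fold change of each of the 9 genes in St2-/- hosts over WT hosts, averaged over both marrows, with WT marrow and with St2-/- marrow; bars are standard errors from the edgeR fit. C2 lies farthest below 0 in all 3 comparisons, and the C1q chains lie below 0 with WT marrow and at 0.14 to 0.27 with St2-/- marrow.

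C2, the serine protease of the classical C3-cleaving enzyme, fell in tumours of St2-/- hosts. It had 11.1, 21.3 and 12.1 CPM in the 3 St2-/- => St2-/- tumours and 13.5, 3.30 and 16.2 CPM in the 3 WT => St2-/- tumours, against 32.7, 63.4 and 48.2 CPM in St2-/- => WT and 31.9, 89.2 and 43.0 CPM in WT => WT. Every St2-/- host was thus below every WT host, whichever marrow it carried. The means were 12.9 ± 5.96 CPM in St2-/- hosts and 51.4 ± 21.8 CPM in WT hosts (SD, n = 6 each), resting on 38 to 269 reads a library in St2-/- hosts and 372 to 923 in WT hosts. The log2 fold change was -2.00 (SE 0.39, edgeR quasi-likelihood test, adjusted p = 0.038), the 153rd smallest p of all genes. It was -2.31 (SE 0.57, edgeR adjusted p = 0.112) with WT marrow and -1.70 (SE 0.55, edgeR adjusted p = 0.352) with St2-/- marrow, neither of which passed. The difference between these 2 host effects was 0.62 (SE 0.77, edgeR adjusted p = 0.866). Without WT => St2-/- replicates 2 and 3 1 library was left in that group, edgeR called 0.0512% of all genes, and the averaged value was -1.85 (edgeR adjusted p = 0.143). The call was also lost without WT => WT replicate 2 or 3, St2-/- => WT replicate 1 or 2, or any St2-/- => St2-/- replicate (edgeR adjusted p = 0.0543 to 0.136), and leaving out each library gave values between -2.20 and -1.73.

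Cfb encodes factor B, the homologue of C2 in the alternative pathway, and followed the same order without passing the test. It had 120, 159 and 119 CPM in St2-/- => St2-/- and 160, 40.9 and 137 CPM in WT => St2-/-, against 163, 292 and 230 CPM in St2-/- => WT and 337, 389 and 267 CPM in WT => WT. The highest St2-/- host, at 160 CPM, lay just under the lowest WT host, at 163 CPM. Mean levels were 123 ± 43.8 CPM in St2-/- hosts and 280 ± 79.5 CPM in WT hosts (SD, n = 6 each). The log2 fold change was -1.17 (SE 0.29, edgeR quasi-likelihood test, unadjusted p = 0.00211, adjusted p = 0.0823). Cfb passed with the DESeq2 Wald test (adjusted p = 0.00329) and with limma-voom (adjusted p = 0.0206), tools that called 7.94% and 12.2% of all genes between hosts. By marrow, the host difference in Cfb was -1.56 (SE 0.41, edgeR adjusted p = 0.134) with WT marrow and -0.78 (SE 0.41, edgeR adjusted p = 0.455) with St2-/- marrow.

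C2 and Cfb are neighbours in the class III region of the major histocompatibility complex. In GRCm38 (GENCODE M21) Cfb lies at chr17:34856374-34862518 and C2 at chr17:34862604-34898265, both on the minus strand and 85 bases apart. The C2 to Cfb ratio of CPM was 0.0809 to 0.134 in St2-/- hosts and 0.0948 to 0.229 in WT hosts, with medians of 0.0971 and 0.205. The ratio overlapped between hosts through WT => WT replicate 1, at 0.0948. With St2-/- marrow it was 0.0922 to 0.134 in St2-/- hosts and 0.200 to 0.217 in WT hosts, without overlap. With WT marrow it was 0.0809 to 0.118 and 0.0948 to 0.229. The ratio was not tested between hosts. The annotation also holds a gene model, Gm20547, that reads through both genes and contains 38.7% of the 50-base words of C2 exons and 73% of those of Cfb. Gm20547 was not a row of the count table. Zbtb12 lies on the opposite strand within C2 and shares 161 of the 3872 exon bases of C2; it had 12.5 to 25.3 CPM, and whether the counting used strand is not known here. Both host differences stood beside a lower level of genes that interferon-gamma induces. EdgeR called 19 of 20 such genes lower in St2-/- hosts, where 1.08% of all tested genes were. This list was chosen with earlier results of these data known. It summed to 590 to 1540 CPM in St2-/- hosts and 2550 to 8050 CPM in WT hosts. Among single tested genes, 1.71% were lower in St2-/- hosts without overlap. Epithelial markers, by comparison, summed to 6300 to 14300 CPM in St2-/- hosts and 11900 to 16800 CPM in WT hosts. EdgeR called 0 of the 10, where it called 1.37% of all tested genes. An unadjusted p under 0.05 was found for 6 of 10, where 20.6% of all tested genes had one. Below 0 were 10 of 10, where 50.2% of all tested genes were. The part of either list in the C2 and Cfb differences was not tested.

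**Figure D2:**
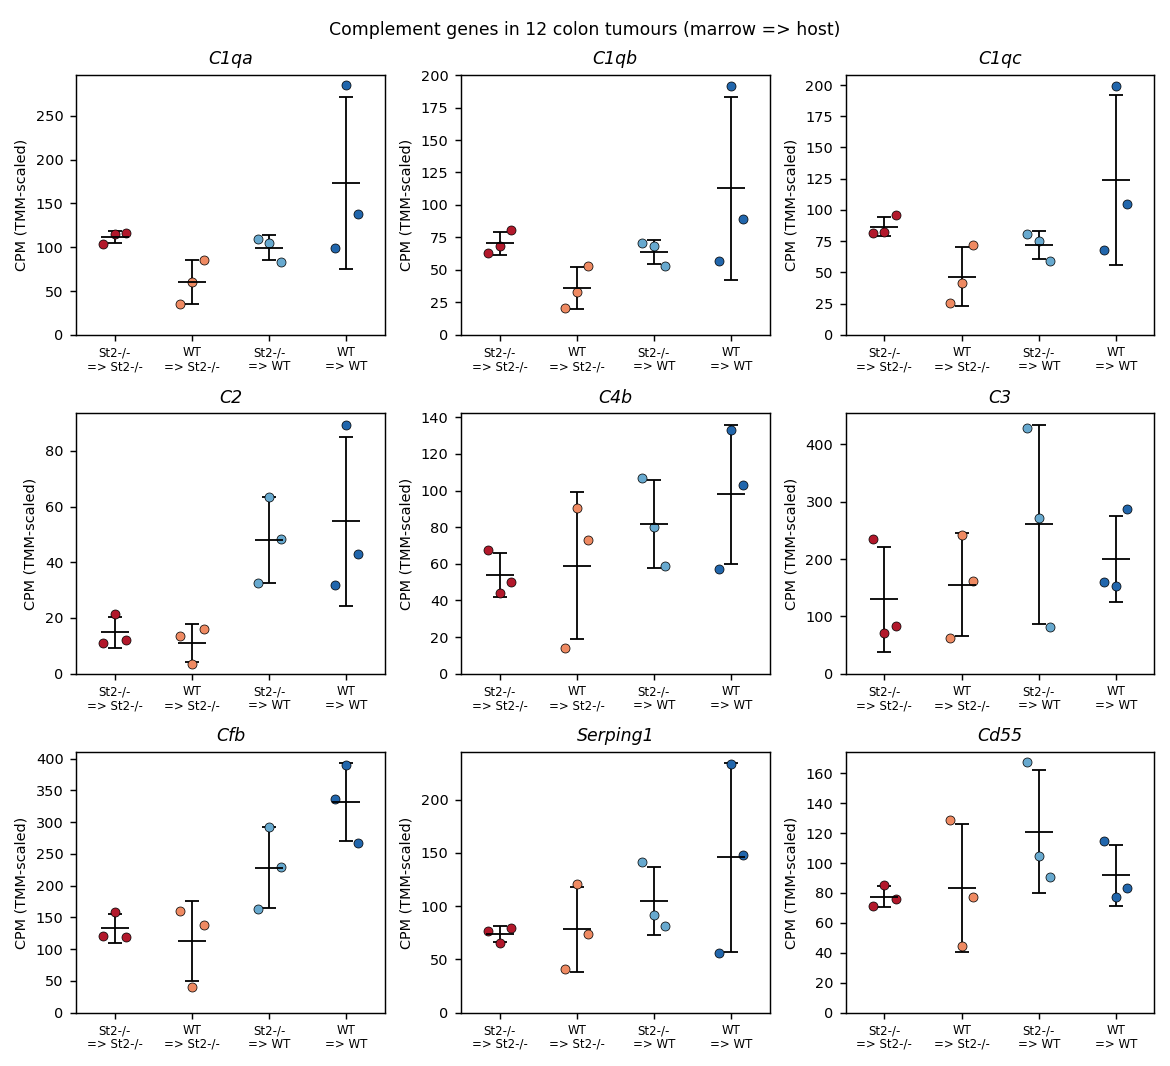
TMM-scaled CPM of each gene in every tumour, by marrow => host group; points are single libraries, horizontal lines group means and bars SD (n = 3 a group), each axis starting at 0. C2 and Cfb separate St2-/- hosts on the left from WT hosts on the right, while C3, C4b, Serping1 and Cd55 overlap between hosts.

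The 3 C1q chains had their lowest levels in WT => St2-/- tumours and their highest mean in WT => WT tumours. C1qa, the A chain, had 104, 115 and 117 CPM in St2-/- => St2-/- and 35.4, 60.4 and 85.4 CPM in WT => St2-/-, against 110, 105 and 83.3 CPM in St2-/- => WT and 98.9, 285 and 138 CPM in WT => WT. C1qb, the B chain, had 62.7, 68.1 and 80.4 CPM in St2-/- => St2-/- and 21.0, 33.2 and 53.0 CPM in WT => St2-/-, against 70.3, 68.3 and 53.2 CPM in St2-/- => WT and 56.8, 192 and 89.4 CPM in WT => WT. C1qc, the C chain, had 81.8, 82.6 and 95.6 CPM in St2-/- => St2-/- and 25.8, 41.6 and 72.2 CPM in WT => St2-/-, against 80.8, 74.9 and 59.3 CPM in St2-/- => WT and 67.6, 200 and 105 CPM in WT => WT. In each of the 3 chains WT => WT replicate 2 was the highest and WT => St2-/- replicate 1 the lowest of the 12 libraries.

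Between hosts that carried WT marrow, the log2 fold changes of the C1q chains were -1.53 for C1qa (SE 0.38), -1.66 for C1qb (SE 0.42) and -1.41 for C1qc (SE 0.41), with adjusted p of 0.116, 0.123 and 0.157 in edgeR's quasi-likelihood test. None of the 9 genes was called in this comparison by edgeR, where 0.159% of tested genes were, and 5 of the 9 had an unadjusted p under 0.05 where 16.7% of tested genes did. The DESeq2 Wald test called 4.95% of all genes and 5 of the 9, namely the C1q chains, C2 and Cfb, and limma-voom called 0 of the 9 and 2% of all genes. C1qa and C1qb did not overlap between WT => St2-/- and WT => WT tumours, lower values that 9.82% of tested genes also showed, while C1qc overlapped. Without WT => WT replicate 2 the 3 values were -0.97, -1.04 and -0.89. Without WT => St2-/- replicates 2 and 3 they were -2.30, -2.42 and -2.26, with 1 library left in that group. The 2 libraries left out were rich in smooth muscle. In this comparison the 10 smooth-muscle markers had a median of 2.66, and their part in the C1q differences was not tested. Fits with other settings, the smooth-muscle score among them, reached -1.055, -1.14 and -0.953 at the highest.

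Between hosts that carried St2-/- marrow, the chains differed by 0.17 (SE 0.37) for C1qa, 0.14 (SE 0.41) for C1qb and 0.27 (SE 0.40) for C1qc, with edgeR adjusted p of 0.879, 0.914 and 0.803. The lowest C1qc value of St2-/- => St2-/- tumours lay just above the highest of St2-/- => WT tumours, a pattern of higher values that 10.6% of tested genes showed. In this comparison edgeR called none of the 9 genes and 0.0598% of all tested genes; 1 of the 9, C2, had an unadjusted p under 0.05, where 12% of tested genes did. DESeq2 called 0 of the 9 and 1.74% of all genes. Limma-voom called 2 of the 9, C2 and Cd55, both lower in St2-/- hosts, and 12.9% of all genes. The difference between the host effects with St2-/- and with WT marrow was 1.69 for C1qa (SE 0.53), 1.80 for C1qb (SE 0.59) and 1.69 for C1qc (SE 0.57). Without WT => WT replicate 2 these values were 1.14, 1.18 and 1.16. The 10 smooth-muscle markers had a median of -2.24 between hosts with St2-/- marrow and of -4.89 for the difference between the host effects. The difference had unadjusted p of 0.00895, 0.0112 and 0.0131 and an adjusted p of 0.559 for each chain in edgeR's quasi-likelihood test, which called 0% of all genes for this difference and gave 7.6% of them an unadjusted p under 0.05. DESeq2 and limma-voom called 0 of the 9 for it, and 0.618% and 0.0266% of all genes. The other 6 genes had unadjusted p above 0.05 for it. Host effects with WT and with St2-/- marrow were therefore not shown to differ for any of the 9.

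Set the other way, within St2-/- hosts the C1q chains were higher with St2-/- marrow than with WT marrow in every tumour: the lowest St2-/- => St2-/- value exceeded the highest WT => St2-/- value for each chain, as 4.58% of tested genes did. The log2 fold changes were 0.89 for C1qa (SE 0.38), 0.98 for C1qb (SE 0.42) and 0.90 for C1qc (SE 0.40), with unadjusted p of 0.0384, 0.0393 and 0.0483 and an edgeR adjusted p of 0.995 each. The 10 smooth-muscle markers had a median of -2.47 here, and their part in the C1q differences was not tested. Fits with other settings, the smooth-muscle score among them, gave 0.73 to 1.66 for C1qa, 0.84 to 1.74 for C1qb and 0.72 to 1.745 for C1qc. In 1 of these fits WT => St2-/- kept 1 library. Within WT hosts the same marrow comparison gave -0.80, -0.82 and -0.79, with an edgeR adjusted p of 0.798 each. In edgeR's test 0% of genes were called in either marrow comparison, and 4.05% in St2-/- hosts and 6.04% in WT hosts had an unadjusted p under 0.05. The DESeq2 Wald test and limma-voom called 0 of the 9 in both; of all genes they called 0.113% and 0.0266% in St2-/- hosts and 0% each in WT hosts.

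The 12 macrophage markers were all detected in every library. Their summed level did not overlap between hosts, whereas that of C1q did. Among single tested genes, 1.71% were lower in St2-/- hosts without overlap. Cd14 reached the highest level of the markers, at 266 CPM. Macrophage markers summed to 343 to 360 CPM in St2-/- => St2-/-, 187 to 353 CPM in WT => St2-/-, 382 to 492 CPM in St2-/- => WT and 424 to 559 CPM in WT => WT. Of the 12, 0 were called by edgeR, where 1.37% of all tested genes were. An unadjusted p under 0.05 was found for 3, where 20.6% of all tested genes had one. Below 0 were 11, where 50.2% of all tested genes were, and the median log2 fold change between hosts was -0.44. These 3 counts and this median are for hosts averaged over marrows. By marrow, the median of the markers was -1.02 with WT marrow and -0.07 with St2-/- marrow. Over all tested genes it was 0.008 and 0.003. The averaged host differences of the C1q chains were -0.68 for C1qa, -0.76 for C1qb and -0.57 for C1qc. The C1q chains together summed to 248 to 293 CPM in St2-/- => St2-/-, 82.2 to 210 CPM in WT => St2-/-, 196 to 261 CPM in St2-/- => WT and 223 to 676 CPM in WT => WT. The ratio of the C1q sum to the macrophage sum was 0.689 to 0.855, 0.290 to 0.724, 0.512 to 0.559 and 0.526 to 1.21 in those 4 groups, in the same order. The part of the macrophage markers in the C1q differences was not tested. Within the C1q sum, C1qa held 39.9% to 44.7%, C1qb 24.6% to 28.4% and C1qc 29.5% to 34.3% over the 12 libraries, so the chains kept nearly fixed proportions in tumours whose C1q level differed widely.

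**Figure D3:**
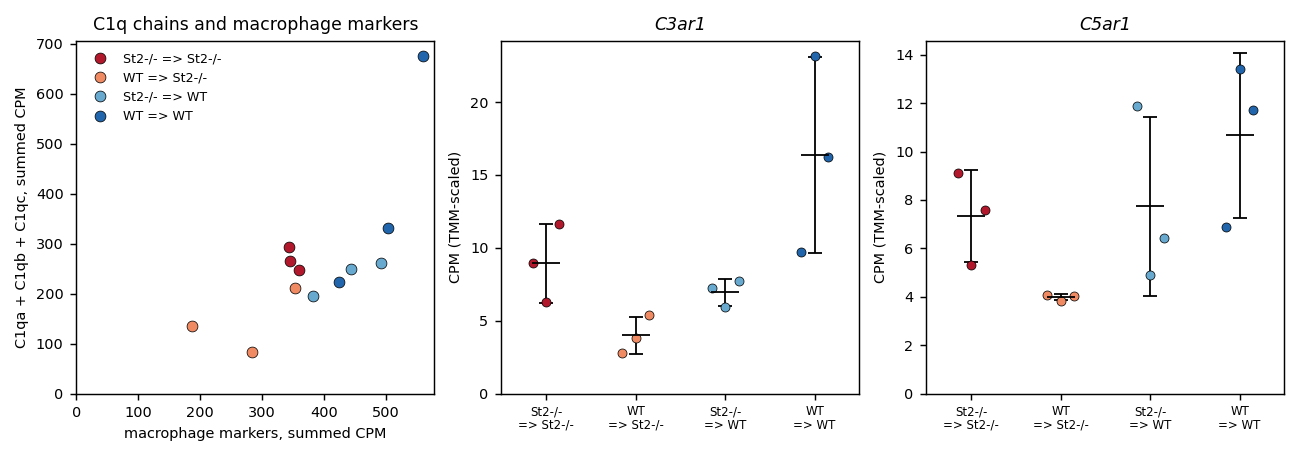
Left, summed CPM of the 3 C1q chains against summed CPM of 12 macrophage markers in each of 12 tumours; middle and right, CPM of the anaphylatoxin receptors C3ar1 and C5ar1 by group, with group means and SD (n = 3). All WT => St2-/- values of C3ar1 and C5ar1 lie below all St2-/- => St2-/- and all WT => WT values. Such a pattern held for 4.58% of tested genes against St2-/- => St2-/- and for 9.82% against WT => WT. WT => WT replicate 2 has the highest C1q, at 676 CPM.

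The C1q genes form a cluster on chromosome 4, with C1qb at chr4:136880129-136886187, C1qc at chr4:136889804-136893065 and C1qa at chr4:136895917-136898803, all on the minus strand of GRCm38 (GENCODE M21). Their exons shared no 50-base word with each other or with any other annotated gene. Sequence before the start of C1qb and C1qc is shown because these neighbouring genes varied together from tumour to tumour, and those of C3 because it had the most motif matches of the members with an entry. RefSeq's promoter table, on GRCm38.p6, held 4 of the 9 members, the fourth being Cd55; the stretches shown are chr4:136886201-136886450, chr4:136893066-136893164 and chr17:57228137-57228386, minus strand, read 5′ to 3′. They are the 250 bases before RefSeq's start, less any base inside the gene as GENCODE gives it. That left out 151 bases of C1qc, for which GENCODE's gene begins upstream of RefSeq's start, and the RefSeq start region of C1qb was not found in its GENCODE transcripts. Capitals mark motif matches, which of the 3 stretches shown C3 alone holds.
C1qb: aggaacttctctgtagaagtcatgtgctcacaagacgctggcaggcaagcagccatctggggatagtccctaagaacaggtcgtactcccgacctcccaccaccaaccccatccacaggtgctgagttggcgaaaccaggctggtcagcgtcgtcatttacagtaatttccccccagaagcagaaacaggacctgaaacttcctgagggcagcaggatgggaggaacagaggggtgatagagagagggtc
C1qc: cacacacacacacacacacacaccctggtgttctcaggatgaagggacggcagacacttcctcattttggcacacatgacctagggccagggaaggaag
C3: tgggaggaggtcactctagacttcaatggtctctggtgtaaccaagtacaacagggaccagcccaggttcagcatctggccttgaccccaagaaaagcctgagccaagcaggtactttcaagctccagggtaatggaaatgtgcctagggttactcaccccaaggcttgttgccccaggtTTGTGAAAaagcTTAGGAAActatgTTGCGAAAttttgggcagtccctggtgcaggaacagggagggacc
Windows from 250 bases before to 50 bases after each start were searched on both strands for 5 motifs: the gamma-activated site TTCNNNGAA, the interferon-stimulated response element core (GAAA, any 2 bases, GAAA), the C/EBP site TTNNGNAA, the PU.1 and IRF composite (GGAA, any 2 bases, GAAA) and the NF-kappaB site. These letters occurred in 8.3%, 3.44%, 40.7%, 2.72% and 4.51% of the 32851 windows in the table, in that order. The C1qc window held an NF-kappaB match, GGGGCTCTCC, and a C/EBP match, TTCTGGAA, both inside the gene as GENCODE gives it and so not in the stretch shown. The C3 window held 3 C/EBP matches, TTGTGAAA, TTAGGAAA and TTGCGAAA, within 70 bases of the start, and the C1qb and Cd55 windows held none of the 5 motifs. A match describes letters in a window and not a bound site.

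C3, on which all pathways converge, and C4b, the classical-pathway C4 of mice, overlapped between hosts. C3 had 236, 70.7 and 83.7 CPM in St2-/- => St2-/- and 62.4, 241 and 162 CPM in WT => St2-/-, against 428, 272 and 82.0 CPM in St2-/- => WT and 160, 152 and 287 CPM in WT => WT. The tumour with the most C3 in a group held 1.88 to 5.23 times that of the tumour with the least, and the averaged host difference was -0.68 (SE 0.46, edgeR adjusted p = 0.428). C4b had 67.6, 44.2 and 50.3 CPM in St2-/- => St2-/- and 14.0, 90.4 and 72.9 CPM in WT => St2-/-, against 107, 80.2 and 58.7 CPM in St2-/- => WT and 57.4, 133 and 103 CPM in WT => WT. Its averaged host difference was -0.66 (SE 0.38, edgeR adjusted p = 0.348). With St2-/- marrow the host difference of C4b was -0.60 (SE 0.54) and turned to 0.61 with a smooth-muscle score in the fit. That of C3 was -1.003 (SE 0.66) and turned to 0.59. With WT marrow the host differences were -0.73 for C4b (SE 0.54) and -0.36 for C3 (SE 0.66). Other settings, apart from leaving out single libraries, gave -2.81 to -0.72 and -1.96 to -0.35 there. In 1 of those fits WT => St2-/- kept 1 library. The lowest C4b and the lowest C3 both came from WT => St2-/- replicate 1, which was not one of those rich in smooth muscle. Acute-phase and NF-kappaB response genes summed to 616 to 1770 CPM in St2-/- hosts and 1640 to 5120 CPM in WT hosts. EdgeR called 0 of the 16, where it called 1.37% of all tested genes. An unadjusted p under 0.05 was found for 10 of 16, where 20.6% of all tested genes had one. Below 0 were 15 of 16, where 50.2% of all tested genes were. The part of these response genes in the C3 difference was not tested. Of 6 hepatocyte markers, Ttr had 11.6 to 61.7 CPM and Alb 2.92 to 49.7 CPM, while Apoa2 was at 0 in 9 libraries and Fgb at 0 in 10. The list summed to 24.2 to 87.5 CPM in St2-/- hosts and 24.6 to 54.1 CPM in WT hosts. C3 lies at chr17:57203970-57228136 and C4b at chr17:34728380-34743882 (GRCm38, minus strand). Of the 50-base words of C4b exons, 34.6% also occur in C4a, the near-identical neighbour, so reads of the 2 could be split or discarded by the counting; C4a had 0.931 to 3.60 CPM, far below C4b.

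Of the regulators, Serping1 and Cd55 also overlapped between hosts when all tumours were taken. Serping1 had 77.0, 65.1 and 79.3 CPM in St2-/- => St2-/- and 40.9, 120 and 73.7 CPM in WT => St2-/-, against 142, 91.3 and 81.6 CPM in St2-/- => WT and 56.2, 234 and 148 CPM in WT => WT. Cd55 had 71.3, 85.2 and 75.8 CPM in St2-/- => St2-/- and 129, 44.3 and 77.2 CPM in WT => St2-/-, against 168, 105 and 90.4 CPM in St2-/- => WT and 115, 77.0 and 83.5 CPM in WT => WT. With St2-/- marrow both genes were lower in every St2-/- host than in every WT host, as 12.7% of tested genes were, and with WT marrow both overlapped. With the smooth-muscle score in the fit, the Serping1 difference with St2-/- marrow was 0.35, against -0.51 (SE 0.48) without it. With WT marrow it was -0.90 (SE 0.48), and -1.835 to -0.877 over the settings other than leaving out single libraries. The averaged host differences were -0.70 for Serping1 (SE 0.34, edgeR adjusted p = 0.266) and -0.39 for Cd55 (SE 0.25, edgeR adjusted p = 0.388). With St2-/- marrow that of Cd55 was -0.64 (SE 0.35, edgeR adjusted p = 0.465). Limma-voom called Cd55 there (adjusted p = 0.0401), along with 12.9% of all genes. Cd55 had the smallest spread of the 9 relative to its mean and the host difference nearest 0. Serping1 lies at chr2:84765387-84775444 and Cd55 at chr1:130439027-130462744 (GRCm38, minus strand). Cd55 shares 8% of its 50-base exon words with its copy Cd55b, listed as Daf2 and holding 17 reads in all, and overlaps the antisense gene Gm16083.

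Per kilobase of exon, the mean level over all 12 tumours was highest for C1qa, at 107 ± 58.6 CPM per kb, followed by Cfb at 71.2 ± 36.2, C1qb at 65.0 ± 39.1, Serping1 at 43.3 ± 22.8, C1qc at 42.6 ± 22.2, C3 at 36.3 ± 21.5, Cd55 at 19.3 ± 6.61, C4b at 12.9 ± 5.64 and C2 at 8.30 ± 6.51 (SD, n = 12). Each neighbouring pair in this order differed by less than the SD of its members, except that C3 and Cd55 differed by more than the SD of Cd55, and Cd55 and C4b by more than the SD of C4b. In St2-/- hosts alone C1qb, at 48.8 ± 20.5 CPM per kb, stood above Cfb, at 43.4 ± 15.5, and C1qc, at 34.5 ± 14, above Serping1, at 32.7 ± 11.1 (SD, n = 6), whereas WT hosts kept the order given. C2, the member with the largest host difference, was thus also the least abundant per length.

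How the 9 genes varied between tumours of 1 group was described by Pearson's r of their log2 CPM after each group's mean was removed, over 12 libraries that share 4 group means and a common depth scale; no p is given. The C1q chains were nearly collinear, with r of 0.99 for C1qa and C1qb, 0.985 for C1qa and C1qc and 0.991 for C1qb and C1qc. C2 and Cfb had r of 0.894, and between 0.729 and 0.963 with any 1 library left out. C4b went with Serping1 at 0.828 (0.773 to 0.912 with 1 library left out) and with C3 at 0.715 (0.651 to 0.794), and Serping1 with C1qa at 0.792 (0.672 to 0.894). Cfb had r of -0.581 with C4b, which was -0.815 to -0.305 with 1 library left out, and of -0.564 with C3, which was -0.691 to -0.41. Its r with the C1q chains was between -0.036 and 0.021, and between -0.275 and 0.425 with 1 library left out. Cd55 was below 0 with all members but C2 and Cfb, and its r with C2, Cfb, C3 and C1qc changed sign when 1 library was left out. Among all tested genes, the one most like C1qa after the other chains was Aif1, a macrophage gene, at 0.975. After the other chains, the gene most like C1qb was Nrip2, at 0.985. C2 was most like Sik1 at 0.982, Apool at 0.976 and Ptges2 at 0.946; Cfb like Myd88 at 0.968, Sec22a at 0.957 and Mtmr11 at 0.952. C4b was most like Akap8l at 0.986, C3 like Foxp2 at 0.984, Serping1 like Hlx at 0.991 and Cd55 like Kcnk1 at 0.979. These are the highest of 15060 values over 12 points, so they were picked for being large. How large such a maximum would be among unrelated genes was not tested.

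**Figure D4:**
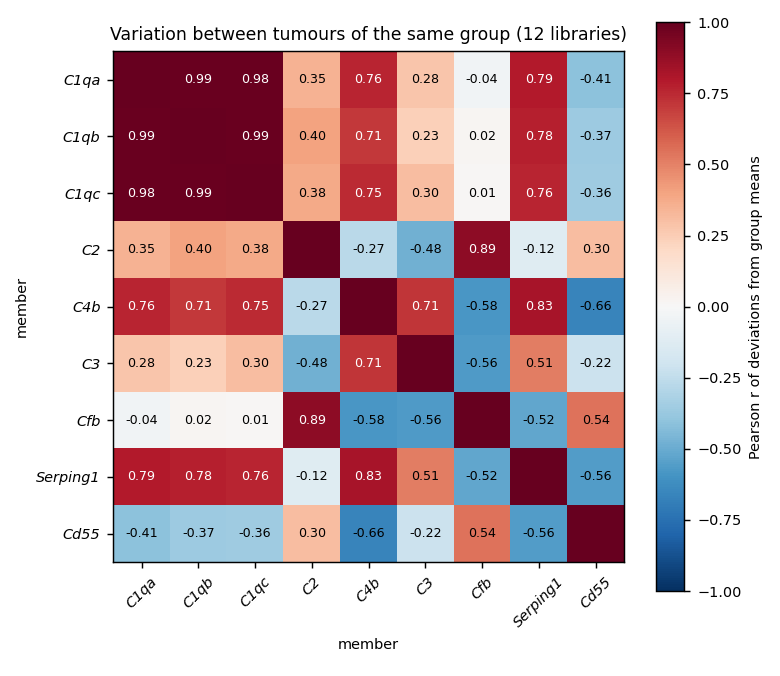
Pearson r between each pair of the 9 genes, from deviations of log2 CPM from the gene's own group mean over 12 libraries, with r printed in each cell. The C1q chains form a block at 0.98 to 0.99, C2 and Cfb pair at 0.89, and C4b and Serping1 at 0.83.

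Beyond these 9, 47 further complement genes were listed, 29 passed the low-count filter, and edgeR called none of them in any comparison. With marrows averaged, 18 of the 29 were below 0 between hosts, where 50.2% of all tested genes were. The median log2 fold change was -0.24, and 10 had an unadjusted p under 0.05, where 20.6% of all tested genes did. The DESeq2 Wald test, which called 7.94% of all genes between hosts, called 6 of the 29 lower, C1ra, C1s1, C1rl, C1qbp, C3ar1 and Itgax, and limma-voom, which called 12.2%, called C1ra, C1s1, C1rl and Itgax lower and Cd46 higher. The C1 proteases lay lowest: C1ra was at -1.01 (SE 0.34, edgeR adjusted p = 0.15) and C1s1 at -1.002 (SE 0.30, edgeR adjusted p = 0.123). C1s1 averaged 66.8 ± 22 CPM in St2-/- hosts and 135 ± 53.2 CPM in WT hosts (SD, n = 6 each). C1rl, a relative of C1r, was at -0.76 (SE 0.25). Some lay above 0: Masp2, a protease of the lectin pathway, at 0.95 (SE 0.40), Cfi, the factor I that degrades C3b and C4b, at 0.99 (SE 0.51), and Cd46, a membrane cofactor of factor I, at 1.17 (SE 0.37, 95 reads in all 12 libraries). Properdin (Cfp) was at -0.06 (SE 0.24), and of the terminal components only C6, at -0.82 (SE 0.41), and C8g, at 0.04, were expressed enough to test. C4bp was at -0.61 (SE 0.37) and C1qbp, a C1q-binding protein, at -0.24 (SE 0.08). Among those too low to test were C5 (Hc), C7, C8a, C8b and C9 of the membrane attack complex, factor D (Cfd), and Mbl1, Mbl2 and Masp1 of the lectin pathway.

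**Figure D5:**
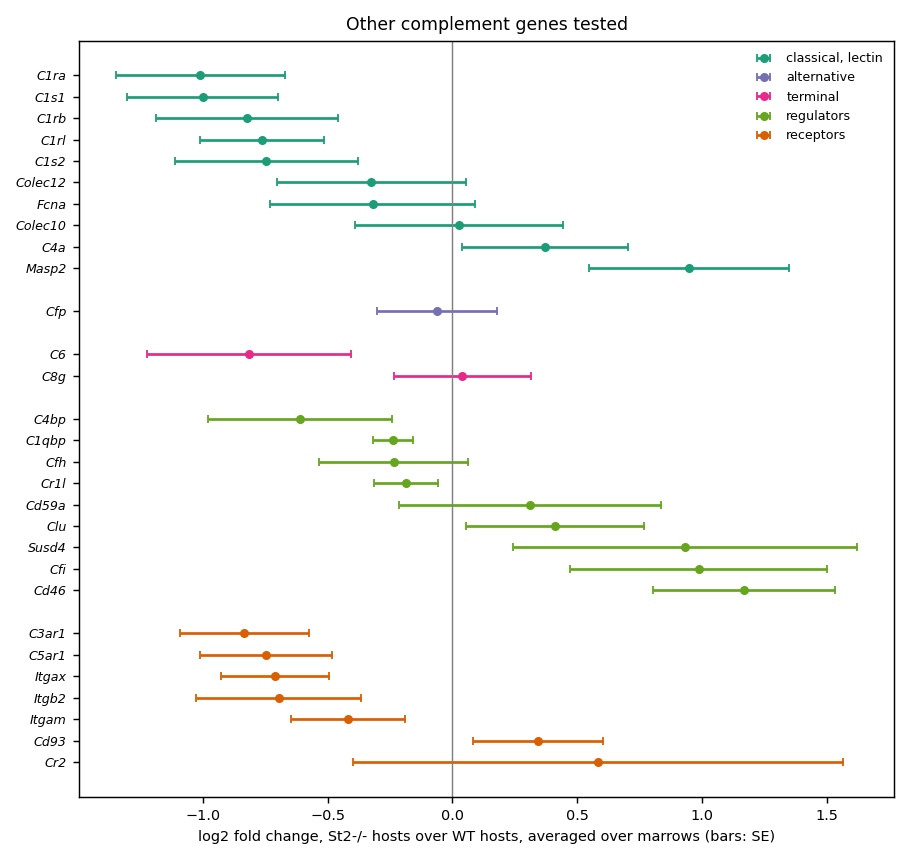
Log2 fold change in St2-/- hosts over WT hosts, averaged over marrows, of the 29 other complement genes tested, grouped by role; bars are standard errors from the edgeR fit. The C1 proteases C1ra and C1s1 lie lowest, near -1, while Cd46, Cfi and Masp2 lie near 1, and edgeR called none.

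The receptors for the complement fragments C3a and C5a, like the C1q chains, were lowest in WT => St2-/- tumours. C3ar1, the C3a receptor, had 8.94, 6.25 and 11.7 CPM in St2-/- => St2-/- and 2.79, 3.83 and 5.36 CPM in WT => St2-/-, against 7.24, 5.92 and 7.72 CPM in St2-/- => WT and 9.70, 23.2 and 16.2 CPM in WT => WT. Every WT => St2-/- tumour was thus below every tumour of the other 3 groups, a pattern whose share among all genes was not counted. Against WT => WT alone, 9.82% of tested genes were lower without overlap. The host difference of C3ar1 was -2.03 with WT marrow (SE 0.38, edgeR adjusted p = 0.0575) and 0.36 with St2-/- marrow (edgeR adjusted p = 0.698). The difference between these effects was 2.40 (SE 0.52, unadjusted p = 0.000801, edgeR adjusted p = 0.539), the 14th smallest p of all genes, and the DESeq2 Wald test, which called 0.618% of all genes for it, gave an adjusted p of 0.0054, while limma-voom gave 0.0994 and called 0 of the 29. C5ar1, the C5a receptor, had a host difference of -1.42 with WT marrow (SE 0.38, edgeR adjusted p = 0.134) and -0.08 with St2-/- marrow. With WT marrow the DESeq2 Wald test called 4 of the 29 lower, C1qbp, C3ar1, C5ar1 and Itgax, and 4.95% of all genes. There limma-voom called 1 of the 29, C3ar1, and 2% of all genes. With St2-/- marrow both tools called 0 of the 29. Itgax and Itgb2, the subunits of complement receptor 4, were at -0.71 (SE 0.22, edgeR adjusted p = 0.125) and -0.70 (SE 0.33, edgeR adjusted p = 0.26) with marrows averaged.

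The marrow's genotype, averaged over hosts, left all 9 genes between -0.28 and 0.14 on the log2 scale, with an edgeR adjusted p of 0.999 for each. Each of edgeR, DESeq2 and limma-voom called 0 of the 9 and 0% of all genes here; 2.76% of all genes had an unadjusted edgeR p under 0.05, and 0 of the 9 did. In the comparison of St2-/- => St2-/- with WT => WT tumours, where both compartments differ, all 9 genes were below 0, where 51.4% of tested genes were. EdgeR called none of the 9 and 0.0266% of all genes, and 2 of the 9 had an unadjusted p under 0.05, where 13.7% of all genes did. C2 was at -1.88 (SE 0.55, edgeR adjusted p = 0.221) and Cfb at -1.32 (SE 0.41, edgeR adjusted p = 0.234). Neither gene overlapped between these 2 groups, as 11.6% of tested genes did not in that direction. DESeq2 and limma-voom each called C2 and Cfb here, and 3.14% and 11.2% of all genes. These comparisons share groups with those above and are not independent of them.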

How the data were processed

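Per the labels, total RNA of snap-frozen AOM-induced colon tumours from 12 chimeric mice was made into TruSeq libraries and sequenced as single-end reads. Per the submitters' processing notes, TopHat and Bowtie2 aligned reads to GRCm38 (mm10); no source used here gives their versions, the counting tool, the annotation or the strand setting. The authors deposited raw counts per gene, 24062 genes and 5 entries that name no gene. Those entries held 49.8% to 59.6% of each library and entered neither library sizes nor tests. Every column matched 1 sample by its name.

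Counts were tested with edgeR 4.0.16 in R 4.3.3: filterByExpr (minimum count 10) kept 15060 genes, TMM factors were 0.899 to 1.12, and robust quasi-likelihood tests (glmQLFit, glmQLFTest) used 1 mean per group over all 12 libraries. P-values were adjusted by Benjamini-Hochberg over all 15060 genes and called under 0.05. The model was also run on simulated data, and the outcome is not given here. Alternatives were DESeq2 1.42.0 and its size factors, limma-voom 3.58.1 with quality weights, other filters, covariates for weeks, smooth-muscle score and replicate number, and leaving out libraries. Likeness used log2 CPM with a prior count of 2. Libraries of 1 group differed beyond counting noise (lowest chi-square per degree of freedom 19.6). The labels call the replicates biological, and replicate numbers did not pair samples: same-numbered libraries had correlations of -0.44 to 0.308.

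The members and gene lists were chosen with earlier results of these data known. Named were all 9 members, up to 4 genes per further complement list with the smallest p between hosts, and the genes most like each member. The PU.1 and IRF composite was searched after the other motifs. Of the gene names, 99.4% matched RefSeq. C1q protein sequences and 5 promoters are not analysed here.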

Additional observations from a re-analysis of the deposited data

How the results depend on the processing

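Between hosts averaged over marrows, 1 of the 9 genes was called; this became 2 with the DESeq2 Wald test, with limma-voom and with the smooth-muscle score as a covariate, fits that called 7.94%, 12.2% and 2.18% of all genes against 1.37%. It became 0 with the replicate block, with weeks after AOM as a covariate and without WT => St2-/- replicates 2 and 3, which called 1.01%, 1% and 0.0512%. Leaving out 1 library at a time gave 0 to 2, with 0.522% to 3.15% of all genes called. With WT marrow the DESeq2 Wald test called 5 in place of 0 (4.95% of all genes). With St2-/- marrow limma-voom called 2 in place of 0, C2 and Cd55 (12.9%). Between St2-/- => St2-/- and WT => WT the DESeq2 Wald test and limma-voom each called 2 in place of 0 (3.14% and 11.2%). C2 lost its call under the replicate block (-1.92, edgeR adjusted p = 0.0795) and the weeks covariate (-2.03, edgeR adjusted p = 0.0688); the cause was not tested. It was also lost, with edgeR, without WT => WT replicate 2 (adjusted p = 0.0752) or 3 (0.0657), St2-/- => WT replicate 1 (0.0543) or 2 (0.11), or St2-/- => St2-/- replicate 1 (0.108), 2 (0.0576) or 3 (0.136). Replicate numbers were shared labels only, so the block carries no pairing. Uncalled values changed sign as follows. Cfp between hosts was 0.001 with the weeks covariate and -0.189 to 0.087 with 1 library left out. C8g was 0.00 with the smooth-muscle score, -0.23 without WT => St2-/- replicates 2 and 3 and -0.10 to 0.18 with 1 library left out. With WT marrow, C3 was -0.83 to 0.02 with 1 library left out. Cd55 there was 0.16 with the smooth-muscle score, 0.49 without WT => St2-/- replicates 2 and 3 and -0.60 to 0.17 with 1 library left out. With St2-/- marrow and the smooth-muscle score, C4b was 0.61, C3 0.59 and Serping1 0.35. Low counts kept 18 of the 47 further complement genes out of the tests, and Cd46 rested on 95 reads in all.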
